A study of Caenorhabditis elegans with 2 samples.

Results

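The genes unc-62, ceh-20, ceh-40, ceh-60 and psa-3 encode the TALE homeodomain cofactors of Hox proteins in Caenorhabditis elegans. They were listed by name, with earlier results of these data known, and are 5 of the 19973 protein-coding genes annotated on the nuclear chromosomes. Binding of LIN-39, the mid-body Hox protein, was mapped by ChIP-seq (sequencing of immunoprecipitated chromatin) in whole L1 larvae of mixed sex. Both replicates, separate biological replicates per the labels, came from strain OP18, which is mutant for unc-119 (allele ed3) and carries the integrated insertion wgIs18 with eGFP-tagged lin-39; the labels do not give the sequence that drives it. There was 1 group, so no second genotype, stage or treatment could be compared. A whole-larva profile averages over all cells, and cells with and without LIN-39 cannot be told apart in it.

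TALE proteins have a homeodomain with an extra loop of residues and fall into the PBC class, represented in flies by Extradenticle and in mammals by Pbx, and the Meis/Prep class, represented in flies by Homothorax. A PBC protein binds DNA next to a Hox protein on a shared composite site. A Meis-class protein binds the PBC protein and, in flies, brings it into the nucleus. UNC-62 is the Meis/Prep homologue of the worm and PSA-3 is Meis-related, while CEH-20, CEH-40 and CEH-60 are PBC proteins.

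Each ranked list held 30000 regions. The label of the pooled list names it as peaks and background, so its low-ranked regions need not be binding sites. The list of optimal peaks for both replicates together held 1488, with signals from 50.03 to 607.5 and a median of 81.3. The signal is the submitters' own peak score. Its scale is not stated and it differed between replicates, with a maximum of 387.8 in replicate 1 and 231.3 in replicate 2. For this reason a region is described by its rank within its list, where 1 is the strongest, and signals are not compared across lists. The replicates shared 0 regions with identical coordinates. The optimal list was made from both replicates, so replicate ranks of its peaks describe them and are no independent check.

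LIN-39 ChIP signal was strong inside unc-62 and at places several kb from ceh-20. At ceh-40, ceh-60 and psa-3, which lie on X, only ranked regions below the optimal set were found. An optimal summit lay in the gene or within 10 kb of it for 2 of the 5 genes, unc-62 with 3 summits and ceh-20 with 2. Of all protein-coding genes, 29.0% had such a summit, and the share was 21.6% on chromosome V (unc-62), 40.4% on chromosome III (ceh-20) and 25.6% on X. A count of 2 of 5 is close to that background. Only unc-62 had a summit inside the gene, as did 1.70% of protein-coding genes. It held 2 of them, in overlapping peaks that were separate in replicate 1 only, and 0.155% of genes held 2 or more. Long genes have more room for a summit: 14.3% of the 495 genes at least as long as unc-62 contained one.

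The sequences at these summits, except the ceh-20 summit at III:6972091, are shown because they place candidate Hox recognition sites, where present, relative to the binding maxima. Around every optimal summit, 100 bp to each side and either strand were searched for 5 motifs: TGATNNAT (the composite site of Hox with PBC proteins), TGATTGAT (a stricter form contained in it), TGACAG (the half-site of Meis-class proteins), TAATTA (a homeodomain core) and GAGAGA (a GA repeat). Capitals mark the matches (of 2 overlapping GAGAGA matches on the line for the weaker intragenic summit, the first), where TCTCTC is GAGAGA and ATCAATCA is TGATTGAT on the minus strand. All lines are plus-strand sequence of ce11, from the RefSeq WBcel235 genome.

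unc-62, strongest intragenic summit, chrV:4507994-4508022: gccttggcaaTGATGGATcgccgcagctg

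unc-62, weaker intragenic summit, stretch around a match that starts 49 bp before it, chrV:4508158-4508179: aaaattgtGAGAGAgagtgaaa

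unc-62, upstream summit, chrV:4495095-4495295: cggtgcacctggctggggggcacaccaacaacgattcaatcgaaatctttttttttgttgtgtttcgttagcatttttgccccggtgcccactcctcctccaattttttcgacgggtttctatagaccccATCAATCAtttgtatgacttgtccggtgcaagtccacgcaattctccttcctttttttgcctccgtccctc

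prk-1 side of ceh-20, chrIII:6988149-6988349: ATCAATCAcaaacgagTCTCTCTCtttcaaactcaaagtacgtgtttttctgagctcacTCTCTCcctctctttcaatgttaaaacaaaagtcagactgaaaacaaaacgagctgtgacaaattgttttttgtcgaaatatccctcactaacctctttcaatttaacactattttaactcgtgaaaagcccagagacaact

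The composite match TGATGGAT at the strongest unc-62 summit began 4 bp before it and so spanned the summit base. A composite match within 100 bp occurred at 253 of the 1488 optimal summits (17.0%), and a match spanning the summit base at 14 (0.941%). That second share was looked up after the match had been seen. The upstream unc-62 summit had the stricter form as ATCAATCA on the minus strand, starting 30 bp past the summit, and the prk-1-side summit had it 100 bp before, at the edge of the window. The stricter form was found at 54 optimal summits (3.63%). Neither the weaker intragenic unc-62 summit nor the ceh-20 summit at III:6972091 (rank 124) had a composite match. No window at these 5 summits held TGACAG, present at 6.45% of optimal summits, or TAATTA, present at 7.80%. GAGAGA was found at 4 of the 5, all but the upstream unc-62 summit, and at 36.6% of optimal summits. The windows of the 3 unc-62 summits had GC contents of 51.7% (strongest), 42.8% (weaker intragenic) and 48.3% (upstream), against a median of 40.3% over all optimal summits. A match is a description of the letters in these windows and not evidence of a bound site.

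unc-62 (WBGene00006796, V:4497461-4511449, plus strand) is 13989 bp long and has 18 annotated transcripts with 15 distinct starts. Its strongest peak, V:4507909-4508104, had its summit at V:4508008, with a pooled signal of 193.5 and rank 119. The matching region had a signal of 105.0 and rank 168 in replicate 1, with the same summit base. In replicate 2 it had a signal of 88.2 and rank 95, with the summit 34 bp farther 3′. Both replicates therefore placed it among their 168 strongest regions of 30000.

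The neighbouring peak, V:4508045-4508384, overlapped the first and had its summit farther 3′, at V:4508215 (pooled signal 69.2, rank 934). Replicate 1 had its own region there, with a signal of 57.2 and rank 605. Replicate 2 had none: the region overlapping this peak was the one already matched to the stronger summit. The second peak is thus separate in 1 replicate only. Of all optimal peaks, 24 (1.61%) overlapped another optimal peak.

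The third peak, V:4495025-4495364, lay in intergenic sequence with its summit at V:4495195, 2266 bp upstream of the outer start (pooled signal 58.6, rank 1184). It was ranked 916 in replicate 1, with a signal of 44.0, and 3866 in replicate 2, with a signal of 15.4. The replicates were thus farther apart here than at the strongest summit. A replicate 2 rank at least 4 times the replicate 1 rank was found at 122 (8.24%) of the 1480 optimal peaks that overlapped regions of both replicates.

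**Figure D1:**
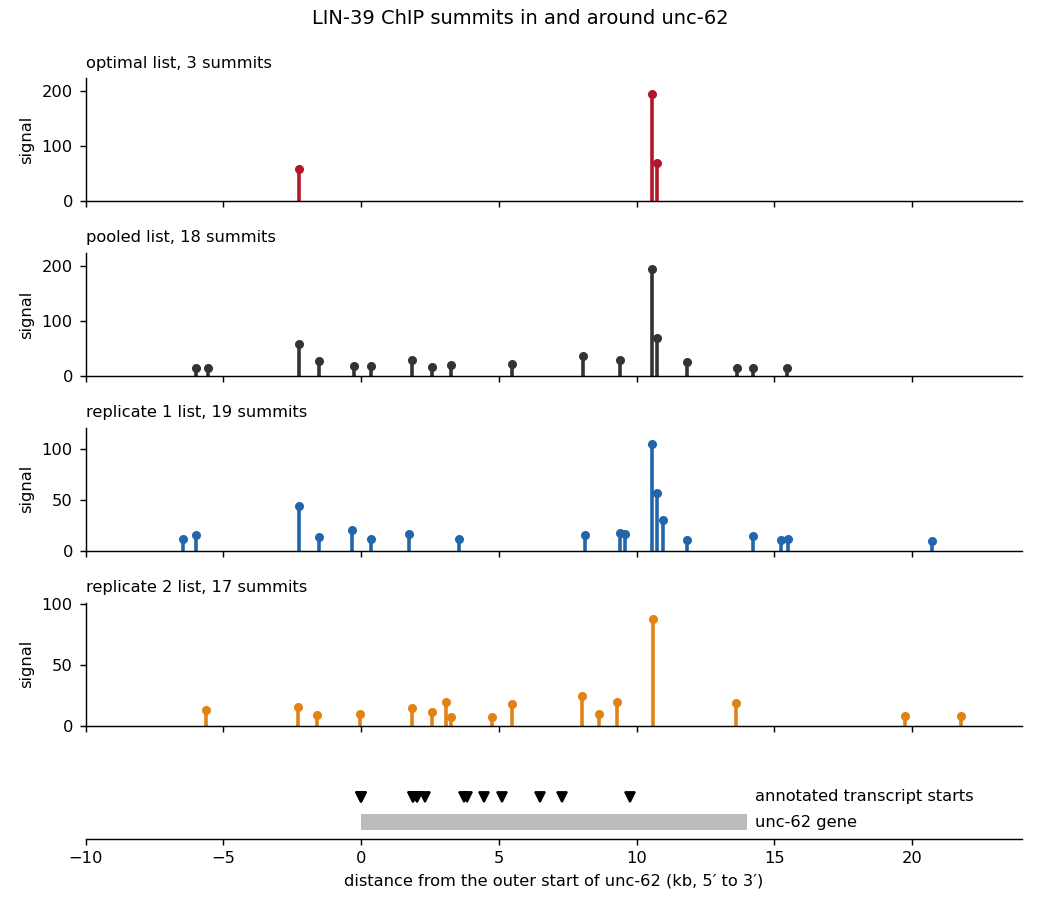
Signal of every summit in unc-62 and within 10 kb (vertical axis, the submitters' score, scaled for each list) against distance from the outer start in kb, for the optimal, pooled, replicate 1 and replicate 2 lists. Triangles mark annotated transcript starts and the grey bar the gene. The tallest summit of all 4 lists lies 10547 bp into the gene or up to 34 bp past that, 3′ of the last annotated start.

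The distance of the strongest summit to the transcript starts depends on which start is meant. It lay 10547 bp downstream of the outer start (T28F12.2d.2) and 10539 to 10545 bp downstream of the neighbouring starts of T28F12.2a.1, c.1, d.1 and f.1. It was 8212 to 8681 bp downstream of the next cluster of starts (T28F12.2d.3, b.1, d.4, c.2 and e.1). For the starts of T28F12.2d.5, g.1, h.1, d.6 and d.7 the distance was 5427 to 6796 bp. It was 4047 bp for T28F12.2d.8, 3248 bp for T28F12.2d.9 and 804 bp for T28F12.2d.10. All 15 starts thus lay 5′ of the summit, and the last, at V:4507204, was the nearest. The weaker intragenic summit was 1011 bp downstream of that start.

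Both intragenic summits fell in the annotated 5′ UTR of T28F12.2d.10, which runs from V:4507204 to V:4509912 (2709 bp). For the other 17 transcripts the same bases are intronic, in an intron of 3973 bp (V:4505906-4509878), 2103 bp past the preceding exon and 1871 bp before the next for the strongest summit. Among the 47 optimal summits in 5′ UTRs (3.16% of the set), the strongest unc-62 summit ranked 6. Outside the start window of every annotated transcript lay 349 optimal summits (23.5%), and among these it ranked 22.

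No optimal summit fell in the window from 2000 bp upstream to 500 bp downstream of any transcript start of the 5 genes. Of protein-coding genes, 8.76% had such a summit, and 8.28% had one when only the outer start was counted. Counting every transcript start added 97 of the 19973 genes, and none of them was a TALE gene. With so small a share, their absence among 5 genes says little about these genes. The 2 nearest misses were both at unc-62. Its upstream summit lay 2266 bp before the outer start, against a limit of 2000 bp, and its strongest summit 804 bp past the last start, against a limit of 500 bp. With 5000 bp upstream allowed, unc-62 alone of the 5 had one, as did 13.2% of genes.

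Weaker ranked regions, from a list that includes background, lined unc-62. The deposited −log10 q, larger for a more significant region, was 3.51 at the optimal summits, with the same value at ranks 119 and 1184. It was 1.78 at V:4505510, the strongest region below them, and 0.373 at V:4497203, so these regions cannot be read as binding. The pooled list placed 18 summits in the gene or within 10 kb: 5 upstream, 11 in the gene and 2 downstream. Only 1.17% of protein-coding genes had more, against a median of 6. Per 10 kb the count was 5.30, against 2.72 for the median gene and 2.99 for the genome, and 7.50% of genes had a higher value. Replicate 1 had 19 summits and replicate 2 had 17.

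Of the 15 distinct unc-62 starts, 11 had a pooled summit within 500 bp, several of them sharing one summit. Over all distinct starts of protein-coding genes the share was 34.0% (10121 of 29784). Because starts share summits, the unc-62 count beside it is no measure of enrichment. The summit at V:4499322 (signal 29.7, rank 4240) lay 5 bp upstream of the start of T28F12.2d.3 and 8 bp upstream of that of T28F12.2b.1. In replicate 2 its summit was 2 bp away, at rank 4448, and in replicate 1 it was 126 bp farther 5′, at rank 7790. A region with its summit at V:4506874 (signal 29.3, rank 4414) lay 330 bp upstream of the last start, T28F12.2d.10, and reached rank 2055 in replicate 2 and 6596 in replicate 1. The strongest pooled region below the optimal set, at V:4505510 (signal 36.8, rank 2577), fell in coding sequence 750 bp downstream of the T28F12.2d.9 start. Replicate 2 ranked it 1377 and replicate 1 ranked it 10108. The outer start itself had a region 258 bp upstream, at V:4497203, with a signal of 17.98 and rank 16729. It was ranked 4457 in replicate 1, ahead of the regions at V:4499322 and V:4506874 there, and 11948 in replicate 2, behind both, so its order against the internal starts differed between replicates.

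In all, 9 pooled regions in the gene lay below the optimal set, ranked 2577 to 26627. Of these, 4 had a region in both replicates, 2 in replicate 1 alone and 3 in replicate 2 alone. Those found in 1 replicate alone therefore rest on less replicate support than the strongest summit. The 4 found in both were ranked 6596 at best in replicate 1 and 1377 at best in replicate 2, against 168 and 95 for the strongest summit.

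ceh-20 (WBGene00000443, III:6979884-6981785, plus strand) encodes the PBC protein most studied as a partner of LIN-39. It is short, 1902 bp, with 1 annotated transcript. Neither optimal summit within 10 kb was nearest to its start. The first, at III:6972091 (region III:6972013-6972181, signal 191.1, rank 124), lay 7793 bp upstream. It was 162 bp upstream of rfc-4, a replication factor C subunit gene. Replicate 1 gave it a signal of 96.6 and rank 214, and replicate 2 a signal of 101.2 and rank 69.

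The second, at III:6988249 (region III:6988087-6988274, signal 157.6, rank 207), lay 6464 bp past the 3′ end of ceh-20. Its nearest start was that of prk-1, a Pim-related kinase gene, 1919 bp away. It was ranked 190 in replicate 1 (signal 100.9) and 209 in replicate 2 (signal 65.7). Both summits were among the 214 strongest regions of each replicate, and both lay in the start window of another gene.

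Close to ceh-20 itself the regions were weak. The best was at III:6979081, 803 bp upstream of the start, with a pooled signal of 26.8 and rank 5726. It was ranked 8801 in replicate 1, 2 bp from the pooled summit, and 5450 in replicate 2, 173 bp from it. Inside the gene, the pooled regions were ranked 19895 and 27495, and the first of them had no region in either replicate. With unc-62, ceh-20 was 1 of 2 members with a pooled summit in a start window, where 57.2% of protein-coding genes had one.

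**Figure D2:**
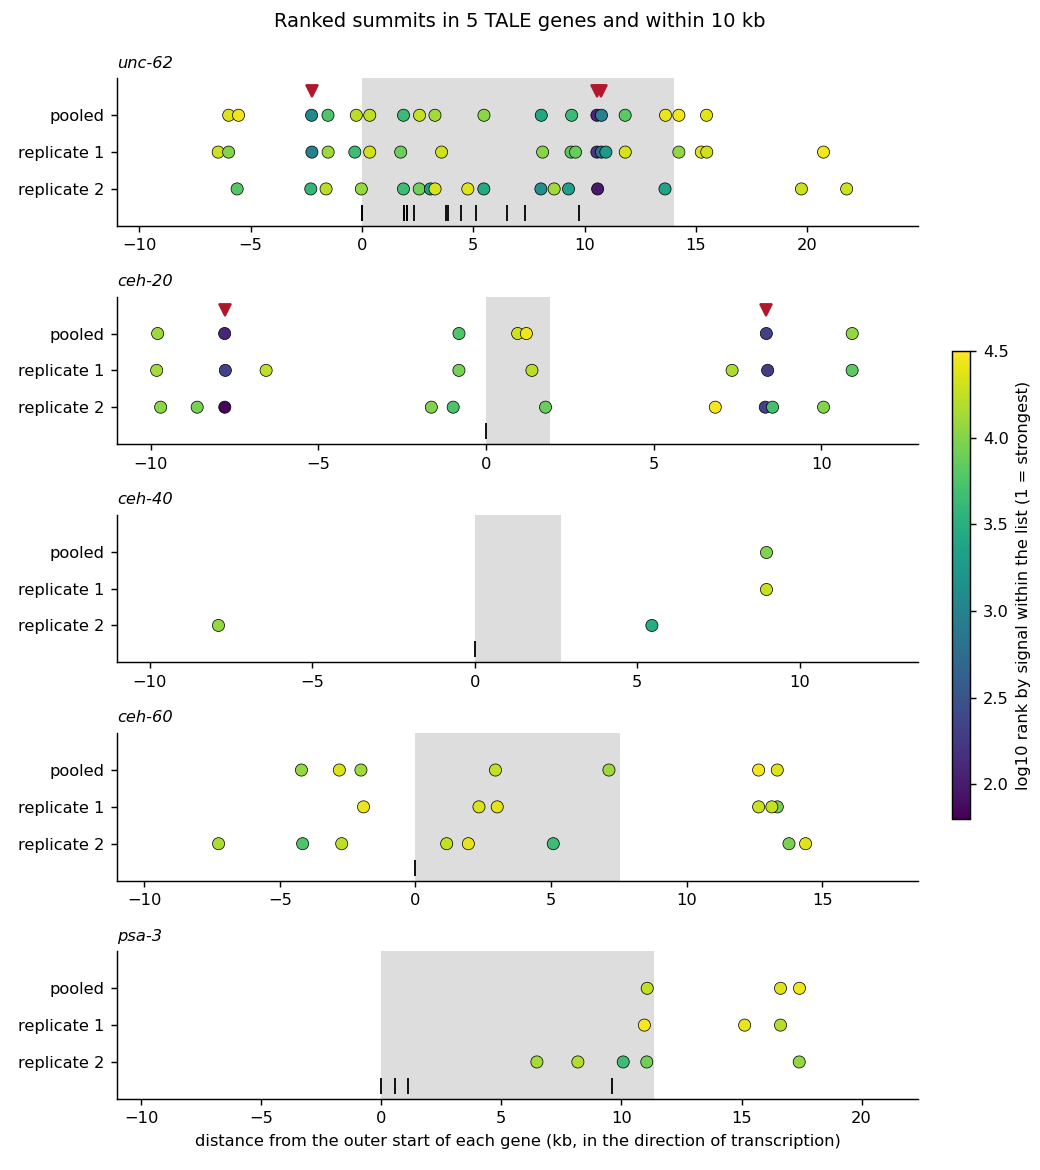
Summits in the pooled, replicate 1 and replicate 2 lists at the 5 genes, against distance from each gene's outer start in kb. Colour gives the log10 rank (dark is strong), red triangles mark optimal summits, grey areas the genes and black ticks the annotated transcript starts. The darkest points lie in unc-62 and on both sides of ceh-20. The upstream unc-62 peak is lighter (pooled rank 1184), and in replicate 2 its rank of 3866 is weaker than the best at ceh-40 (3026).

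ceh-60 (WBGene00017690, X:6522596-6530146, minus strand) encodes a PBC protein known for its part, with UNC-62, in yolk protein expression in the adult intestine. It had 7 pooled summits within 10 kb, 2 of them in the gene. The best, at X:6534349 (signal 20.9, rank 11502), lay 4203 bp upstream, in coding sequence of the neighbouring gene ilys-5, an invertebrate-type lysozyme gene. It had no region in replicate 1 and was ranked 5596 in replicate 2. The region closest to the ceh-60 start on its upstream side, at X:6532155 (signal 19.8, rank 13138), was 2009 bp upstream of the start and had a region in replicate 1, at rank 26603, and none in replicate 2. The best pooled region inside the gene, at X:6523009 (signal 20.03, rank 12803), overlapped no region of either replicate. The replicates had other summits in the gene, 2 in replicate 1 and 3 in replicate 2. The strongest of them was in replicate 2, at X:6525062 (signal 14.6, rank 4464), in an intron, with no counterpart in the pooled list or in replicate 1. Not one of the 7 pooled regions had a region in both replicates.

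psa-3 (WBGene00009560, X:15407931-15419298, plus strand) is known for its part in asymmetric division of the T cell in the tail, where it is a target of the Hox protein NOB-1 and of CEH-20. It has 4 annotated starts. Its 3 pooled summits all lay 3′ of the last of these, the best at X:15419005 (signal 17.4, rank 18053), in coding sequence 1455 bp past the start of F39D8.2d.1. Its replicate ranks were 29508 (replicate 1) and 8228 (replicate 2). Replicate 2 also had a summit at X:15418005, 455 bp downstream of the F39D8.2d.1 start (signal 14.4, rank 4565), with no counterpart in the pooled list or in replicate 1. The outer start lay in a stretch of 24.9 kb without a pooled summit, and 8.19% of protein-coding genes started in a stretch as long. In replicate 1 the stretch was 24.3 kb and in replicate 2 it was 23.8 kb.

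ceh-40 (WBGene00000461, X:12318126-12320777, minus strand) encodes the remaining PBC protein, which acts redundantly with CEH-20 in the embryo. No list had a summit in the gene. The 1 pooled summit within 10 kb, at X:12311809 (signal 22.2, rank 9748), lay 6317 bp past the 3′ end, in a pseudogene. It was ranked 18956 in replicate 1 and absent from replicate 2. Replicate 2 had a stronger summit at X:12315326 (signal 17.0, rank 3026), 2800 bp past the 3′ end and 242 bp upstream of xtr-2. One pooled summit or none was found at 8.42% of protein-coding genes, and none at 3.22%. The stretch without a pooled summit around the start was 29.7 kb long, and 5.45% of genes started in one as long. It was 34.8 kb in replicate 1 but 13.3 kb in replicate 2.

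The first optimal summits outside the 10 kb limit were 104540 bp from unc-62, 79096 bp from ceh-20, 42372 bp from ceh-40, 61751 bp from ceh-60 and 42548 bp from psa-3. For the last 3 genes these were also the nearest of all. The one nearest to ceh-40 (X:12363149, signal 478.7, rank 6) was among the strongest of the set and lay 1755 bp from the start of F19H6.5.

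By the best pooled rank within 10 kb, the order was unc-62 (119), ceh-20 (124), ceh-40 (9748), ceh-60 (11502) and psa-3 (18053). A better rank was found at 2.98% of protein-coding genes for unc-62 and at 3.10% for ceh-20. For ceh-40 the share was 76.6%, for ceh-60 81.2% and for psa-3 90.6%. The ceh-20 rank is that of the peak 162 bp upstream of rfc-4, and the best region close to ceh-20 itself was ranked 5726. The first 2 did not keep their order in the replicates: the best rank was 168 for unc-62 and 190 for ceh-20 in replicate 1, and 95 for unc-62 and 69 for ceh-20 in replicate 2. Among the last 3, replicate 1 gave ceh-60 8747, psa-3 15983 and ceh-40 18956, and replicate 2 gave ceh-40 3026, ceh-60 4464 and psa-3 4565, so their order is not resolved. The gap between the first 2 and the last 3 was present in both replicates, but the last 3 stood lower in replicate 1 than in replicate 2. For ceh-20 the gap rests on peaks nearest to other genes. The region close to ceh-20 itself was ranked 8801 in replicate 1, behind the best at ceh-60. It was ranked 5450 in replicate 2, behind the best at each of the last 3. In replicate 1 a better rank was found at 92.7% of genes for ceh-40, 74.99% for ceh-60 and 89.7% for psa-3. In replicate 2 the shares were 44.8% for ceh-40, 55.9% for ceh-60 and 56.6% for psa-3, close to the middle of all genes. The median gene had a best pooled rank of 3621. X had 2.96 pooled summits per 10 kb, chromosome V 2.38 and chromosome III 3.44. The last 3 genes all lie on X and the first 2 do not, so gene and chromosome cannot be told apart here.

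**Figure D3:**
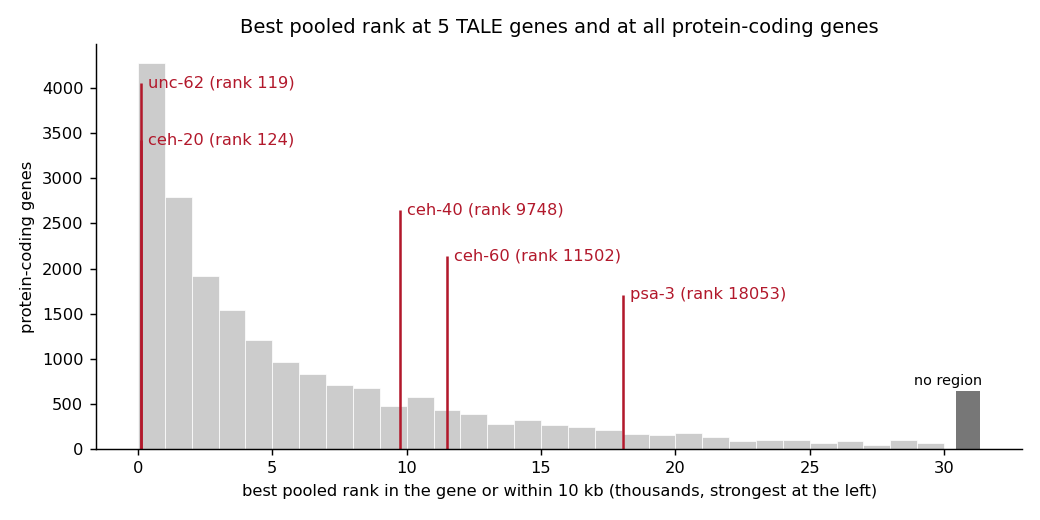
Best pooled rank in the gene or within 10 kb (horizontal axis, in units of 1000 ranks) for the 5 genes (red lines) and the number of protein-coding genes in each bin of 1000 ranks (grey bars); the dark bar holds the genes with no region. unc-62 and ceh-20 fall in the first bin, ceh-20 through a peak 162 bp upstream of rfc-4, and ceh-40, ceh-60 and psa-3 lie beyond rank 9000.

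Replicate by replicate, the same 2 genes were found. Among the 1488 strongest regions of replicate 1, unc-62 and ceh-20 had a summit within 10 kb, as did 28.3% of protein-coding genes. Among those of replicate 2 it was again unc-62 and ceh-20, against 28.4% of genes.

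**Figure D4:**
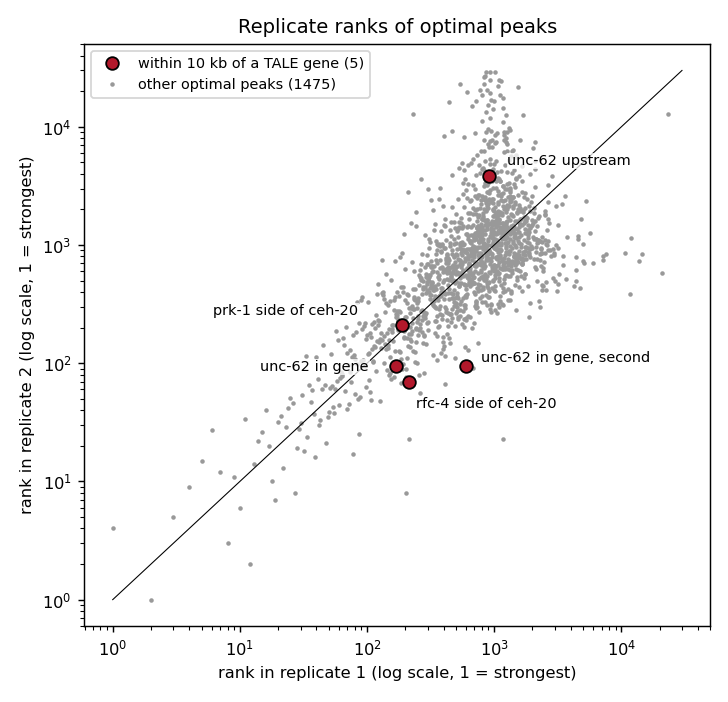
Rank in replicate 1 against rank in replicate 2 for peaks of the optimal list found in each of them (log axes, 1 is the strongest, the line marks equal ranks). Red points are the 5 peaks within 10 kb of a TALE gene and grey points all other such peaks. The upstream unc-62 peak lies well above the line (916 and 3866), and the weaker intragenic unc-62 peak lies below it because replicate 2 has 1 region for both intragenic peaks.

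Genes around these cofactors were read in the same way. Of the 6 Hox genes, ceh-13 and mab-5 had an optimal summit within 10 kb, and none had one in a start window. The shares of all protein-coding genes were 29.0% within 10 kb (40.4% on chromosome III, where both summits lie) and 8.76% in a start window. The ceh-13 summit (III:7560005, signal 86.4, rank 659) was 4345 bp downstream of the ceh-13 start, past the gene, and nearest to lgc-12, 2167 bp away. That of mab-5 (III:7771221, signal 68.2, rank 960) was 1101 bp upstream of snu-23. At lin-39 itself no pooled summit lay in the gene or within 10 kb, as at 3.22% of protein-coding genes. The strain also carries tagged lin-39 in an insertion, and its effect on this locus was not tested. The empty stretch cannot be read as absence of binding. The best pooled rank was 18302 at egl-5 and 5181 at both php-3 and nob-1. The TALE gene irx-1, of the Iroquois class, had no optimal summit and a best pooled rank of 2268.

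Of 14 genes reported to act with or downstream of TALE cofactors, 3 had an optimal summit within 10 kb, and 0 of 14 had one in a start window. The background shares for both counts are those given above, 29.0% and 8.76%. At mig-13, which promotes anterior migration of Q neuroblast descendants, the summit at X:4802473 (signal 62.9, rank 1085) was 2345 bp upstream of its start and nearest to it. For egl-1, a BH3-only cell death gene, and sys-1, a beta-catenin gene, the nearest starts belonged to other genes. The egl-1 summit (signal 52.3, rank 1393) was 327 bp upstream of rrsr-1, and the stronger of the 2 at sys-1 (signal 284.8, rank 45) was 256 bp upstream of eif-3.C, a translation initiation factor gene. The remaining 11 were hlh-8, egl-18, elt-6, pqm-1, pop-1 and the 6 vitellogenin genes vit-1 to vit-6, with best pooled ranks from 2489 to 17001.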

How the data were processed

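Chromatin immunoprecipitation and sequencing of LIN-39-eGFP was deposited as ranked lists of genomic regions for each of the 2 replicates and for both together (pooled), and as a list of optimal peaks for both together. Per the submitters' notes deposited with each sample, the lists came from alignments of the replicates and of a control. Which aligner, caller and cutoff were used is not stated in the sources at hand; the file labels name the optimal list as thresholded on irreproducibility between replicates. The deposited signal value is the authors' own peak score, with no stated scale, and was ranked within each list. The deposited −log10 q follows the narrowPeak definition and was not used to rank. The deposited summit offset, another per-region number, placed each summit. Read numbers and aligned reads were not used here, so depth is unknown and no interval for counting error is given.

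Only the lists on ce11 were used (those on ce10 were not used here), with the matching WBcel235 sequence (RefSeq) and the gene annotation of Ensembl release 115. The 5 genes were located by symbol. A summit was counted where it fell in a gene or within 10 kb of its ends. Transcript starts were taken from every annotated transcript, and the start window ran from 2000 bp upstream to 500 bp downstream. A replicate region was matched to a peak by an overlap of at least 1 bp and, among several, by the nearest summit. Shares over all 19973 protein-coding genes are given beside each count of genes called. With 1 group and no second condition, no test was made. The scripts (Python 3.11.15, numpy 2.4.6, pandas 2.3.3, matplotlib 3.10.9) were tested on simulated data. Named were the 5 genes, their optimal summits and strongest pooled regions, the genes with the nearest starts, and the genes of 3 lists (Hox genes, irx-1, and genes reported to act with or downstream of TALE cofactors) with an optimal summit within 10 kb; the other genes of these lists are named outside that rule, so that each list is shown whole. Members and lists were chosen with earlier results of these data known. Alternatives changed the list, the window, the set of starts and the replicate used.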

Additional observations from a re-analysis of the deposited data

How the results depend on the processing

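The count of 2 of 5 genes with an optimal summit in the gene or within 10 kb was unchanged with the 744 strongest optimal peaks, with the 2976 strongest pooled regions, with the strongest 1488 regions of either replicate, and with any overlap in place of the summit. It was 1, unc-62 alone, within 5 kb, within 2 kb and inside the gene, because both summits near ceh-20 lie farther away. The count of 0 of 5 genes with an optimal summit in a start window was 1 with 5000 bp upstream, 1 with the 2976 strongest pooled regions, and ranged from 0 to 1 when 1 replicate was left out. It was 1 without replicate 1, through the region ranked 1377 in replicate 2, and in each of these 3 cases the gene was unc-62. It was 0 under the 5 other alternatives. The distance of the strongest unc-62 summit to the nearest start was 804 bp, from 804 to 838 bp when 1 replicate was left out (the replicate summits had an SD of 24.04 bp), and 10547 bp to the outer start. The 18 pooled summits at unc-62 became 11 inside the gene, and 16 to 19 under the other 3 alternatives. Its best rank of 119 was 95 in replicate 2 and 168 in replicate 1. No paired analysis was possible because there is 1 group. Depth is unknown, so a region missing from a list cannot be read as unbound.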
